A study of Mus musculus with 32 samples.

Results

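The genes described here are the 37 mouse genes that carry glucose from the cell surface to acetyl-CoA: 2 glucose transporters, 9 genes of upper glycolysis, 4 genes that set fructose 2,6-bisphosphate, 8 genes of lower glycolysis, 4 genes of lactate production and transport, 5 genes of pyruvate entry into the mitochondrion and 5 genes that control pyruvate dehydrogenase. They were chosen by symbol and function, though with earlier results of these data known, and each symbol matched 1 of the 50686 Ensembl genes of the count table. All 37 passed the filter on low counts, which left 15505 genes. The RNA came from interscapular brown adipose tissue (iBAT), a heat-producing fat depot between the shoulder blades, and was sequenced in bulk. The mice were C57BL/6J males of 10 weeks that ate chow and were not fasted. All mice lived in mild cold, below thermoneutrality, under equal periods of light and dark, and none carried a transgene or received an agent. Tissue was collected every 3 h from ZT0 to ZT21. Zeitgeber Time (ZT) counts hours from lights on, ZT0 opens the light phase, in which mice rest, and ZT12 opens the dark phase, in which they are active. Each of the 8 time points had 4 mice, each mouse gave 1 library, and no mouse was followed over time.

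Brown adipocytes take up much glucose when heat is produced, although fatty acids are their main fuel. Glucose enters through GLUT1 and the insulin-responsive GLUT4, is trapped by hexokinase and is split and oxidized to pyruvate by the glycolytic enzymes, with phosphofructokinase as a main point of control. Pyruvate then either becomes lactate, which leaves or enters cells through monocarboxylate transporters, or enters the mitochondrion and is turned into acetyl-CoA by pyruvate dehydrogenase, whose activity is switched off by kinases and on again by phosphatases.

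Total counts per library ran from 16300770 to 18254659, and the 37 genes together took between 1.03% and 2% of them, with a median of 1.48%. Levels are given as CPM, the counts of a gene relative to the TMM-scaled size of its library. All 9 brown adipocyte markers were detected in every library, and of the 4 white adipocyte markers Lep and Agt were detected in every library too, Lep at 16.2 to 275 CPM, while Hoxc9 was at 0 in 27 libraries and Tcf21 in all 32. The summed level of 11 skeletal muscle markers varied widely, from 2.51 to 7560 CPM with a median of 520 CPM. It was over 10 times the median in 5 libraries, replicate 3 of ZT0, replicate 2 of ZT3, replicate 2 of ZT12, replicate 1 of ZT15 and replicate 4 of ZT18, so counts are also given without these 5. The highest sum among the libraries kept was 4770 CPM, in replicate 3 of ZT15, so these counts are not free of muscle transcripts. Replicate 3 of ZT9 held the highest sums of red blood cell and leukocyte markers and the lowest share of counts on the 37 genes. It also had the highest share of counts on mitochondrially encoded genes, 28.2%, and what goes with its low share on the 37 genes was not tested. By the labels, lane 2 carried ZT0 to ZT6, lane 3 carried ZT9 to ZT15 and lane 4 carried the remaining time points, ZT18 and ZT21. A difference between time points of different lanes therefore cannot be told apart from a difference between lanes. The exons of 12 of the 37 genes overlap a gene on the opposite strand (Slc2a1, Hk1, Gpi1, Pfkm, Pfkp, Aldoa, Tpi1, Pfkfb1, Pfkfb2, Gapdh, Mpc1 and Pdha1), and since the strand setting of the counting is not given in the sources used here, reads of the overlaps cannot be told apart.

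The question was which steps of glucose use oscillated over the day, when they peaked and by how much. Of the 37 genes, 15 oscillated by JTK, the rank test used in the study, at P under 0.05, where 36.4% of all tested genes did. Without the 5 libraries with high muscle markers 13 did, against 34.6%, with Pkm and Pdhb lost. After Benjamini-Hochberg (BH) adjustment 9 remained, against 27.1% of all tested genes. In bulk tissue, fewer cells of a type and less RNA per cell cannot be told apart. In edgeR's quasi-likelihood test of a 24 h cosine, 18 of the 37 passed an adjusted p of 0.05, against 36.1% of all tested genes, and 12 did so without the 5 libraries with high muscle markers, against 33.6% of the genes tested there. A fitted change between peak and trough of at least 1.5-fold went with the call in 8 genes, Hk2, Pfkl, Pfkp, Pfkfb1, Pfkfb3, Gapdh, Eno2 and Slc16a1, against 12% of all tested genes. By edgeR, 11 genes differed between the 8 time points at an adjusted p under 0.05, where 39.8% of all tested genes did, and 16 genes passed none of these tests. Without the 5 libraries 12 differed, against 31.7%: Pfkfb2 and Pdp2 no longer passed, and Gapdh, Mpc1 and Pdp1 did. The median fitted change was 1.36-fold over the 37 genes and 1.21-fold over all tested genes, and 1.48-fold and 1.35-fold over those called. Of the 18 genes with a cosine component, 12 (66.7%) had their fitted peak between ZT18 and ZT3, compared with 39.5% of all 5602 called genes. Of these 12, 4 (Slc2a4, Hk2, Gapdh and Mpc1) peaked less than 0.5 h after ZT18, the edge of that window, and 6 were still called without the 5 libraries with high muscle markers. Markers of other cells also had cosine components: 2 of 4 of endothelium (Kdr with a peak at ZT23.8, adjusted p = 0.000994, and Cdh5 at ZT3.01, adjusted p = 0.0209), 2 of 5 of leukocytes (Adgre1 at ZT7.46 and Csf1r at ZT8.54) and 1 of 4 of white adipocytes (Lep at ZT16.01, adjusted p = 0.0017). Of the other white adipocyte markers Agt did not pass (cosine adjusted p = 0.889), and Hoxc9 and Tcf21 were too low to be tested. The summed endothelial markers ranged from 547 to 845 CPM over the libraries, and the part of other cells in the peaks of the 37 genes was not tested. Of the 6 genes of the list that peaked at other times, Hk1 and Pfkfb3 peaked in the light phase near ZT5, Pdp2 near ZT9, and Pfkfb1, Eno2 and Pdk2 near the start of the dark phase.

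**Figure D1:**
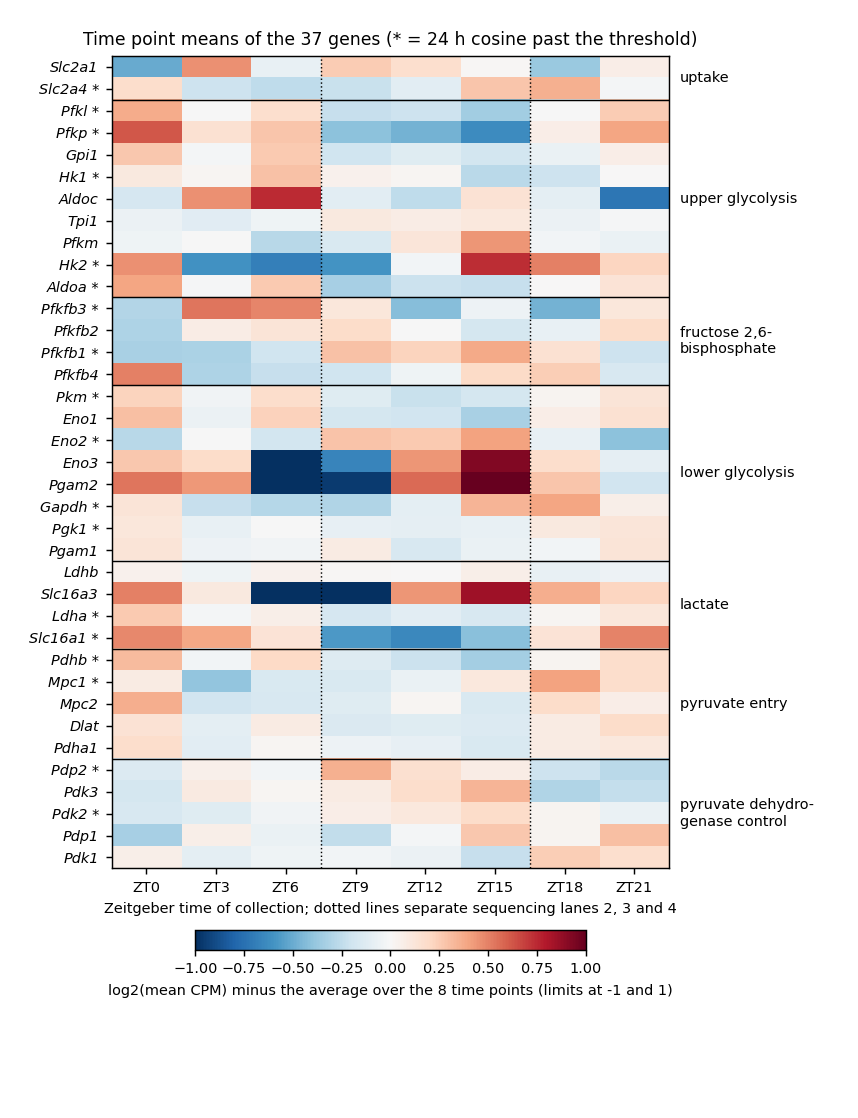
Heat map of the 37 genes (rows, grouped by role) over the 8 time points (columns), coloured by the log2 of the mean CPM of 4 mice minus the gene's average over the time points, from blue (lower) to red (higher), with an asterisk for the 18 genes with a 24 h cosine component. Pfkp, Slc16a1 and Pfkl are red at ZT0 and ZT21 and blue from ZT9 to ZT15, Hk2 is red from ZT15 to ZT0, and Pgam2, Eno3 and Slc16a3, which vary together, carry no asterisk.

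**Figure D2:**
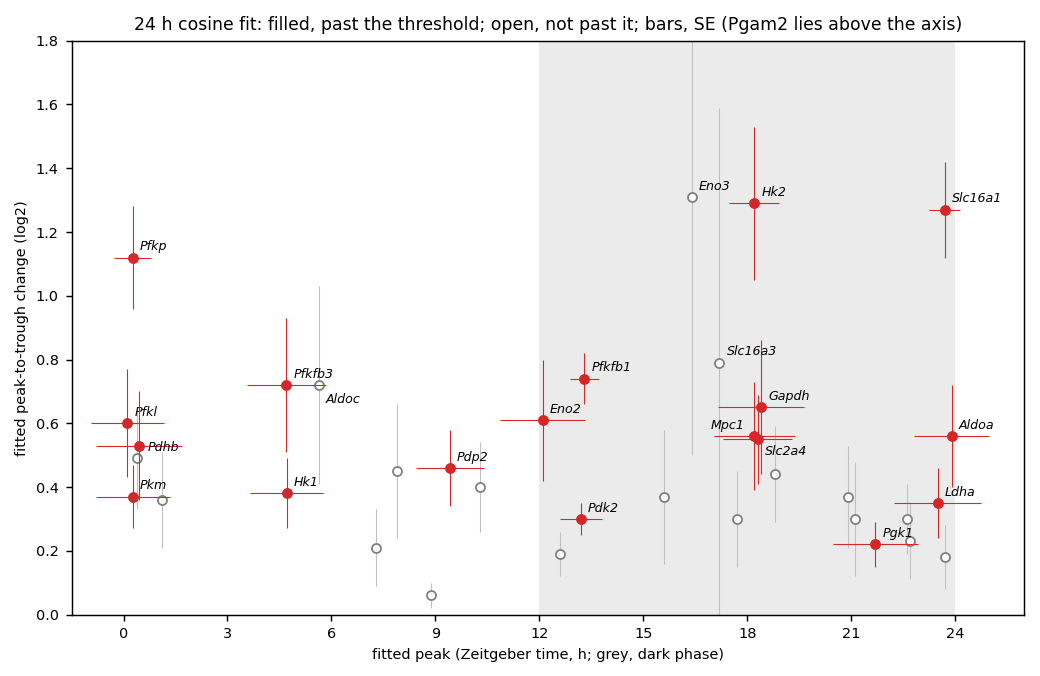
Fitted peak time (horizontal axis, ZT in hours) and fitted peak-to-trough change (vertical axis, log2) of the 24 h cosine, with filled circles for the 18 genes past the threshold, open circles for the others and bars for the standard error. Hk2, Slc16a1 and Pfkp have the largest changes among the filled circles, at 1.29, 1.27 and 1.12, and most filled circles lie between ZT18 and ZT3.

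Because lane divides the time points, the differences were also tested within lanes. Among ZT0, ZT3 and ZT6 on lane 2, Slc2a1, Hk2 and Pfkfb4 differed, that is 3 of 37 genes against 12.7% of all tested genes. The count depended on single libraries: of ZT0, Pfkfb4 alone passed without replicate 1, Hk2 alone without replicate 2, none of the 37 without replicate 3, and 6 genes without replicate 4. The share of all tested genes moved in the same direction, to 6.09%, 6.09%, 5.55% and 21%. Without replicate 3 or replicate 4 of ZT3, 2 passed, Hk2 and Pfkfb4, against 7.95% and 9.14%. Pfkfb3 alone passed without the libraries with high muscle markers, against 4.21%. On lane 3 no gene of the 37 passed by edgeR, against 1.75% of all tested genes, and 2 (Slc2a4 and Hk2) had an unadjusted p under 0.05. The same 2 genes passed the adjusted threshold without replicate 1 of ZT15, against 2.5% of all tested genes, and also without the libraries with high muscle markers, against 1.63%. On lane 4, ZT18 and ZT21 differed in Slc16a1 alone, against 4.06% of all tested genes. With lane as an additive factor in the cosine fit, 4 of the 37 passed, Slc2a4, Hk2, Pfkfb2 and Pfkfb4, against 17.2% of all tested genes. Without the libraries with high muscle markers Slc2a1 and Gapdh passed as well, 6 in all, against 15.4%. Of the 18 genes with a cosine component, 2 (Slc2a4 and Hk2) passed both with and without the lane factor.

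The promoters of Slc16a1, Hk2, Pfkp and Pdk2 are shown, because these are 4 of the 5 genes with the lowest adjusted p in the cosine fit. The other, Pfkfb1, had the lowest adjusted p in that fit (2.14e-07), and its sequence is not shown. Each line gives the 250 bases before a transcription start annotated by RefSeq (GRCm38.p6), read 5′ to 3′ on the strand of the gene. Capitals mark ACGTG or its reverse complement, the core of the hypoxia response element, and CACGTG, the E-box bound by clock and glucose-responsive factors, which contains that core on both strands. The windows are chr3:104638414-104638663 on the plus strand for Slc16a1, chr6:82774455-82774704 on the minus strand for Hk2, chr13:6648772-6649021 on the minus strand for Pfkp, and chr11:95041372-95041621 on the minus strand for Pdk2.
Slc16a1: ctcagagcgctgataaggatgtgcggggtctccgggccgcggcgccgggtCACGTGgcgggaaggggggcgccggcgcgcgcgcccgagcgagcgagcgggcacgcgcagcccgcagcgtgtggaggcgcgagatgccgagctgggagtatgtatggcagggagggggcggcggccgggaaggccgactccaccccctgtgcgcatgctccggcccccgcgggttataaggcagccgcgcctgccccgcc
Hk2: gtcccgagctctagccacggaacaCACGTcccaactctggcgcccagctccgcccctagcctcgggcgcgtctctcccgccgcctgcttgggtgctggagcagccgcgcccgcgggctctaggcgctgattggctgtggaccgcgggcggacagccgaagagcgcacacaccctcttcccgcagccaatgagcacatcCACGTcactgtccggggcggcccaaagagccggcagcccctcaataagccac
Pfkp: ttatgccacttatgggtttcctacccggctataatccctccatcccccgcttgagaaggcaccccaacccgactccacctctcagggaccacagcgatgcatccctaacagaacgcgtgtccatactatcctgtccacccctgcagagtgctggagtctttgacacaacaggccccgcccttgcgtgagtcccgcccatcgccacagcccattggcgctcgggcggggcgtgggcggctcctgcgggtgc
Pdk2: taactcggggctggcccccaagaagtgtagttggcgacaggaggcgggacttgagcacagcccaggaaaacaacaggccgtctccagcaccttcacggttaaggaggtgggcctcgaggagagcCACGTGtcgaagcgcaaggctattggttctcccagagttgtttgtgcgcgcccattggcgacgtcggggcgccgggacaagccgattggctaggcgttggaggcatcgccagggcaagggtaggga
The E-box began 200 bases before the start of Slc16a1 and 126 bases before that of Pdk2, whose fitted peaks lay at ZT23.7 and ZT13.2. RefSeq gives another start for Pdk2, whose window, chr11:95040876-95041125, had neither motif. Hk2 had no E-box in this window but had ACGTG at 226 and 52 bases before its start, and Pfkp had neither motif. None of the RefSeq promoters of Pfkfb1 had either motif. RefSeq promoters were found for 35 of the 37 genes, 55 promoters in all, taken as 300 bases around the start. CACGTG lay in 12.7% of them and in 7.2% of all 32851 promoters, and ACGTG, searched on both strands and counted also within CACGTG, in 41.8% and 19.6%. The 7 genes with CACGTG were Ldha, Pdk2, Pdp2, Pfkfb2, Pfkfb3, Pfkm and Slc16a1, of which 5 had a cosine component (Ldha, Pdk2, Pdp2, Pfkfb3 and Slc16a1), against 18 of all 37 genes, with fitted peaks from ZT4.7 to ZT23.7. A match of letters is a description and not a bound site.

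Of the transporters, Slc2a4, which encodes GLUT4, was the main form. Per kilobase of exon its reads exceeded those of Slc2a1, which encodes the basal transporter GLUT1, in all 32 libraries, by a median of 63.6-fold. Slc2a4 had the values 828, 751, 572 and 518 CPM at ZT18, its highest time point, and 555, 511, 410 and 270 CPM at ZT6, its lowest. The highest mouse at ZT6 exceeded the lowest at ZT18, so the mice of these time points overlapped. The fitted cosine gave a 1.46-fold change with a peak at ZT18.3 (adjusted p = 0.00706), and the call held beside lane (adjusted p = 0.0192). Slc2a1 was low throughout, with 8.46, 9.81, 13.7 and 10.5 CPM at ZT3 and 4.36, 4.68, 4.47 and 8.29 CPM at ZT0. Every mouse at ZT3 was above every mouse at ZT0, although the highest ZT0 mouse came close. Within lane 2 this rise was 0.96 ± 0.21 on the log2 scale (edgeR, SE, n = 4 each, adjusted p = 0.0186). The test over the 3 time points of lane 2 no longer passed for Slc2a1 in 5 of 12 fits that left out 1 library, with an adjusted p of up to 0.0722, nor without the libraries with high muscle markers (adjusted p = 0.101). Slc2a1 differed between the 8 time points (adjusted p = 0.0422) with no cosine component past the threshold (adjusted p = 0.22), and that difference was lost in 17 of the 32 fits that left out 1 library, most clearly without replicate 3 of ZT3 (adjusted p = 0.0946).

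In upper glycolysis, Hk2 and Pfkp had the largest changes among the genes with a cosine component. Hk2, the insulin-responsive hexokinase that commits glucose to the cell, had 235, 702, 873 and 851 CPM at ZT15 and 280, 233, 302 and 181 CPM at ZT6. At ZT15, 3 mice lay far above all mice of ZT6, while replicate 1, the library with the highest muscle marker sum, lay among them. The fitted change was 2.45-fold with a peak at ZT18.2 (1.29 ± 0.24 on the log2 scale, SE, n = 32, edgeR adjusted p = 0.00021), and beside lane the adjusted p was 0.000227. Within lane 2, Hk2 fell from 549 CPM at ZT0 to 263 CPM at ZT3 and 249 CPM at ZT6 (log2 changes of -1.06 ± 0.25 and -1.14 ± 0.25, SE, n = 4, edgeR adjusted p = 0.0253 and 0.014). This call was lost without replicate 3 of ZT0 (adjusted p = 0.0578 for the 3 time points) and without the libraries with high muscle markers (adjusted p = 0.0697). Hk1, the constitutive form, was far less abundant: per kilobase, Hk2 exceeded it in 32 of 32 libraries, by a median of 20.7-fold. Hk1 varied in another phase, from 32.2 ± 6.37 CPM at ZT6 to 21.8 ± 2.41 CPM at ZT15 (SD, n = 4), with a fitted peak at ZT4.71 (adjusted p = 0.0137).

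Phosphofructokinase is made of liver, platelet and muscle type subunits. Pfkp, the platelet type, had 142, 135, 169 and 99.6 CPM at ZT0 and 42.6, 58, 59.2 and 68.6 CPM at ZT15, with no overlap. Its fitted change was 2.17-fold with a peak at ZT0.26 (adjusted p = 6.98e-06). Pfkl, the liver type, had the most reads per kilobase in all but 3 of the 32 libraries. Pfkp lay below it in all 32 by a median of 10.6-fold, and Pfkm by a median of 2.13-fold. In 3 libraries with high muscle markers Pfkm was above Pfkl, by 1.04 on the log2 scale in replicate 1 of ZT15 and by 0.07 or less in replicate 2 of ZT3 and of ZT12. Pfkl had 628, 511, 882 and 461 CPM at ZT0 and 249, 434, 380 and 452 CPM at ZT15. The lowest ZT0 mouse stood just above the highest ZT15 mouse, and the extremes were the libraries with high muscle markers, replicate 3 of ZT0 and replicate 1 of ZT15. The fitted change of Pfkl was 1.52-fold with a peak at ZT0.11 (adjusted p = 0.0152), and without the 5 libraries with high muscle markers the adjusted p was 0.0712. Beside lane neither passed (adjusted p = 0.354 for Pfkp and 0.753 for Pfkl). Pfkm, the muscle type, ran from 84.3 to 257 CPM without a cosine component (adjusted p = 0.272).

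The aldolase Aldoa, which splits fructose 1,6-bisphosphate, was the most abundant of the 37 genes per kilobase of exon, with a median of 1030 CPM per kilobase. The share of 100-base exon windows found in no other gene was 100% for Aldoa but 79.1% for Gapdh, so the ranking is uncertain for such genes. Aldoa had 3770, 3560, 5330 and 3130 CPM at ZT0 and 3300, 2640, 1520 and 2090 CPM at ZT9. The highest ZT9 mouse reached the range of ZT0, and the lowest value was that of replicate 3 of ZT9. The fitted change was 1.48-fold with a peak at ZT23.9 (adjusted p = 0.0166), and 0.0923 without the libraries with high muscle markers. Aldoc, a form known from brain, stayed between 0.42 and 3.04 CPM. Gpi1, which converts glucose 6-phosphate to fructose 6-phosphate, had its highest mean at ZT0 (963 ± 251 CPM) and its lowest at ZT9 (696 ± 159 CPM, SD, n = 4), and did not pass the cosine test (adjusted p = 0.089). Tpi1, the triose phosphate isomerase, varied least in this group, from 281 ± 41.7 CPM at ZT3 to 328 ± 21.5 CPM at ZT15 (SD, n = 4, adjusted p = 0.0687). Of the 9 genes of upper glycolysis, 5 had a cosine component, against 36.1% of all tested genes.

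**Figure D3:**
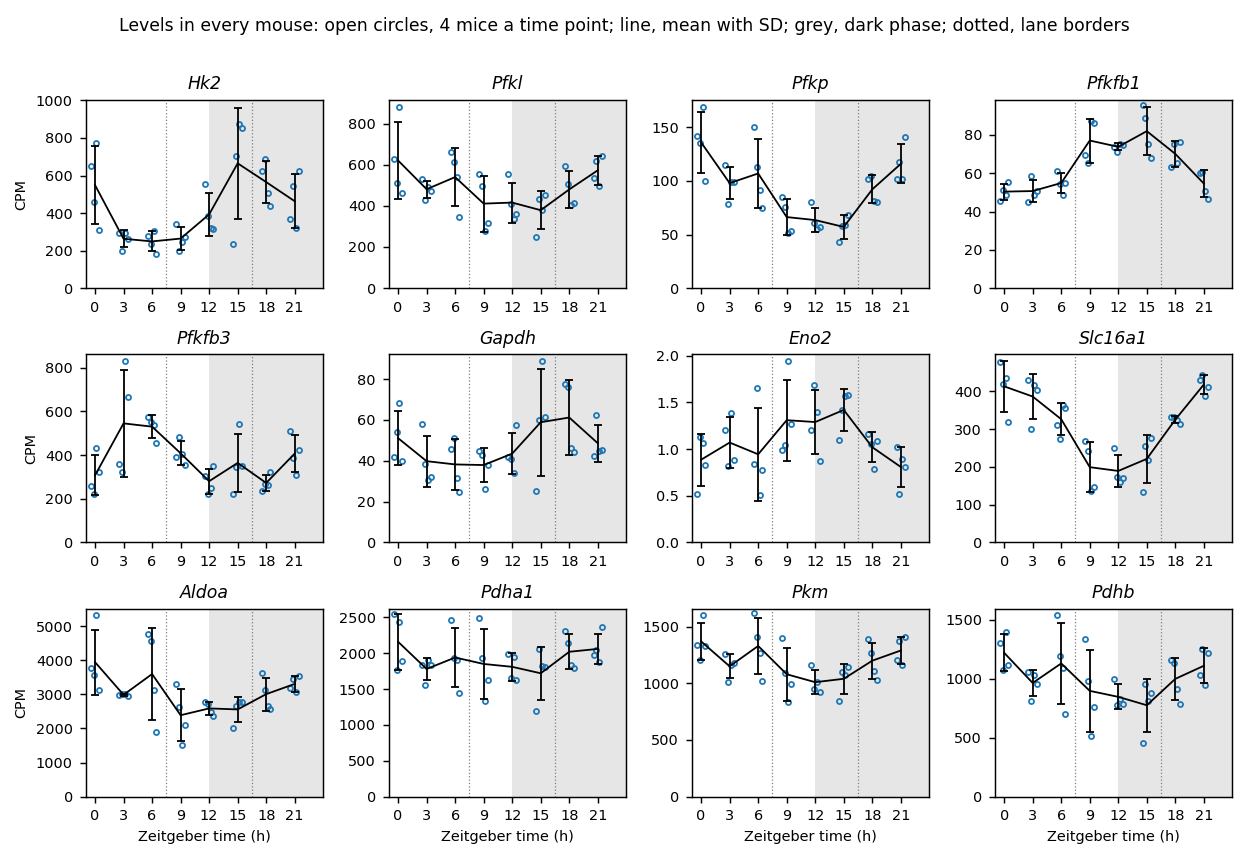
CPM in every mouse (open circles) against ZT in hours for the 8 genes with a cosine component and a fitted change of at least 1.5-fold and for the 4 genes with the highest mean CPM, with the mean and SD of 4 mice as a line, the dark phase in grey and lane borders dotted. Slc16a1 and Pfkp lie high around ZT0 and low from ZT9 to ZT15, Pfkfb1 lies high from ZT9 to ZT18, and Hk2 at ZT15 has 1 mouse at 235 CPM below 3 mice at 702 to 873 CPM.

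Fructose 2,6-bisphosphate is the strongest activator of phosphofructokinase, and its level is set by 4 bifunctional enzymes. All 4 genes differed between time points, as did 39.8% of all tested genes. Pfkfb1 had 95.6, 88.9, 75.5 and 67.9 CPM at ZT15 and 45.7, 51.5, 48.8 and 55.5 CPM at ZT0, with no overlap. The fitted change was 1.66-fold with a peak at ZT13.3 (0.74 ± 0.08 on the log2 scale, SE, n = 32, edgeR adjusted p = 2.14e-07), and the call held in each of the 32 fits that left out 1 library, while beside lane the adjusted p was 0.13. Pfkfb3, an inducible form with high kinase activity, had 358, 323, 830 and 667 CPM at ZT3 and 234, 266, 262 and 324 CPM at ZT18. The mice of ZT3 fell into a low pair, of which the lower touched the range of ZT18, and a high pair. The fitted change of Pfkfb3 was 1.65-fold with a peak at ZT4.7 (adjusted p = 0.0147), and with the muscle marker sum as a covariate the adjusted p was 0.0552.

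Pfkfb4, at 4.92 to 14.9 CPM, had 8.92, 11.5, 14.9 and 6.95 CPM at ZT0 and 5.94, 6.21, 6.5 and 5.47 CPM at ZT3, on the same lane. The groups did not overlap, and the highest mouse was replicate 3 of ZT0. Within lane 2 the change from ZT0 to ZT3 was -0.81 ± 0.20 on the log2 scale (SE, n = 4, edgeR adjusted p = 0.0257). The test over the 3 time points of lane 2 gave an adjusted p of 0.0256, or 0.0778 without replicate 3 of ZT0. Pfkfb4 also had a cosine component beside lane (adjusted p = 0.00742, peak at ZT17.7) but not without it (adjusted p = 0.0581). Pfkfb2, the heart form, ranged from 8.25 ± 1.93 CPM at ZT0 to 11.6 ± 1.41 CPM at ZT9 (SD, n = 4). It passed the cosine test beside lane only (adjusted p = 0.0127, peak at ZT5.85), and its difference between time points (adjusted p = 0.0477) was lost in 21 of 32 fits without 1 library, most clearly without replicate 2 of ZT0 (adjusted p = 0.113).

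In lower glycolysis 4 of 8 genes had a cosine component, against 36.1% of all tested genes, and none differed between time points in edgeR's F test, against 39.8%. Gapdh, which oxidizes glyceraldehyde 3-phosphate, had 77.5, 76.3, 46.5 and 44.4 CPM at ZT18 and 44.7, 42.8, 26 and 38.1 CPM at ZT9. The ZT18 mice formed a high and a low pair, and the low pair met the top of ZT9. The fitted change was 1.57-fold with a peak at ZT18.4 (adjusted p = 0.0238), or an adjusted p of 0.0558 without replicate 1 of ZT18. Gapdh counts are uncertain, because 79.1% of the 100-base windows of its exons are its own and 86 other genes share the rest.

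Pkm, the pyruvate kinase outside liver and blood, had 1340, 1210, 1600 and 1330 CPM at ZT0 and 1160, 949, 1010 and 926 CPM at ZT12. All ZT0 mice were above all ZT12 mice. Its fitted change was 1.29-fold with a peak at ZT0.271 (adjusted p = 0.0172), or 0.0664 without the libraries with high muscle markers. Eno2, an enolase known from neurons, was near 1 CPM, with 1.1, 1.42, 1.57 and 1.58 CPM at ZT15 and 1.02, 0.517, 0.891 and 0.805 CPM at ZT21. The groups lay close to each other without overlap. The fitted change of Eno2 was 1.52-fold with a peak at ZT12.1 (adjusted p = 0.0419), and the call was lost in 15 of 32 fits without 1 library, most clearly without replicate 2 of ZT12 (adjusted p = 0.081). Pgk1, the phosphoglycerate kinase, moved 1.16-fold with a peak at ZT21.7 (adjusted p = 0.0439), and 48.3% of its exon windows are its own. Its call was lost in 14 of 32 fits without 1 library, most clearly without replicate 3 of ZT9 (adjusted p = 0.0894). It was also lost without the libraries with high muscle markers (adjusted p = 0.111).

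Eno1, the main enolase, had a mean of 1110 ± 163 CPM at ZT0 and 719 ± 189 CPM at ZT15 (SD, n = 4) and lay at the threshold (adjusted p = 0.050, not called). Of its exon windows 79.6% are its own. Pgam1, the phosphoglycerate mutase outside muscle, ran from 56.8 ± 13 CPM at ZT12 to 69.2 ± 5.56 CPM at ZT0 (SD, n = 4, cosine adjusted p = 0.374), with 66.1% of its windows its own.

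The muscle forms Pgam2 and Eno3, together with Pfkm and the lactate exporter Slc16a3, varied widely between mice of 1 time point. At ZT6, Pgam2 had 0.0597, 17.7, 0 and 0.167 CPM, and the mouse at 17.7 CPM was also the one with a high muscle marker sum (1910 CPM against 2.51 to 6.63 CPM in the other 3). In the 5 libraries with the highest muscle marker sums Pgam2 had 51.3 to 79.2 CPM, against 0 to 39.9 CPM in the 27 others. Eno3 had 135 to 192 CPM there and 7.51 to 113 CPM in the others, and Slc16a3 had 4.14 to 5.36 CPM against 0 to 3.34 CPM. These 3 of 37 genes did not overlap between the 5 and the 27 libraries in that direction, where 0.748% of all tested genes did not. Pfkm overlapped, with 166 to 257 CPM against 84.3 to 187 CPM. None of the 4 had a cosine component (adjusted p from 0.272 to 0.674), nor had any of the 11 muscle markers. For the other 33 genes the median of the 5 over the median of the 27 ran from 0.703 for Aldoc to 1.33 for Pdk3. It was above 1 for 10 genes, among them Hk2 (1.2) and Tpi1 (1.13), and below 1 for 23, among them Aldoa (0.904) and Pkm (0.854). The part of muscle RNA in the time course of the other genes was not tested beyond leaving these libraries out and fitting the marker sum as a covariate, under which 14 of the 18 genes kept their cosine component, Pfkfb3, Eno2, Ldha and Pdhb lost it and none gained one, against 35.4% called of all tested genes. The fitted log2 changes of these 4 were 0.35 to 0.65 with the covariate and 0.35 to 0.72 without it.

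**Figure D4:**
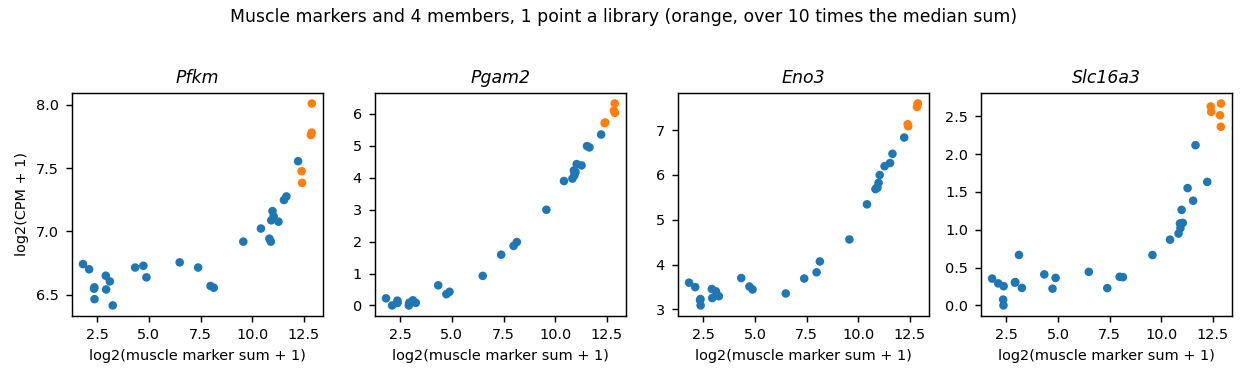
Level of Pfkm, Pgam2, Eno3 and Slc16a3 (vertical axes, log2 of CPM + 1) against the summed level of 11 skeletal muscle markers (horizontal axes, log2 of CPM + 1), with 1 point for each of the 32 libraries and the 5 libraries over 10 times the median sum in orange. These genes were picked after their values were seen, and each is highest in the libraries with the highest muscle markers.

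Lactate is made from pyruvate by lactate dehydrogenase, whose A and B subunits are encoded by Ldha and Ldhb. Per kilobase of exon Ldha was above Ldhb in 1 of 32 libraries, with a median ratio of 0.836. This order rests on the exon lengths used, 3310 bases for Ldha and 1570 for Ldhb, since in CPM Ldha was above Ldhb in all 32 libraries. Ldhb had the smallest fitted change of the 37 genes. It ran from 483 ± 12 CPM at ZT18 to 529 ± 26.7 CPM at ZT15 (SD, n = 4), and the fitted cosine change was 1.04-fold (adjusted p = 0.596). Ldha ran from 1060 ± 140 CPM at ZT0 to 791 ± 205 CPM at ZT9 (SD, n = 4), with a peak at ZT23.5 (adjusted p = 0.049) that was lost in 19 of 32 fits without 1 library, most clearly without replicate 3 of ZT0 (adjusted p = 0.113).

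Slc16a1, which encodes the lactate and pyruvate transporter MCT1, had the lowest JTK P of the 37 genes. It had 431, 444, 387 and 411 CPM at ZT21 and 251, 174, 160 and 169 CPM at ZT12. The mice of these time points lay far apart. The fitted change was 2.42-fold with a peak at ZT23.7 (1.27 ± 0.15 on the log2 scale, SE, n = 32, edgeR adjusted p = 3.7e-07, JTK P = 2.09e-08). Within lane 4 it rose from 325 CPM at ZT18 to 418 CPM at ZT21 (0.36 ± 0.06 on the log2 scale, SE, n = 4 each, edgeR adjusted p = 0.0157), and with the replicate number as a block the adjusted p was 0.0678. Beside lane the cosine did not pass (adjusted p = 0.121). Slc16a3, the MCT4 of glycolytic muscle, was per kilobase a median of 553-fold below Slc16a1.

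**Figure D5:**
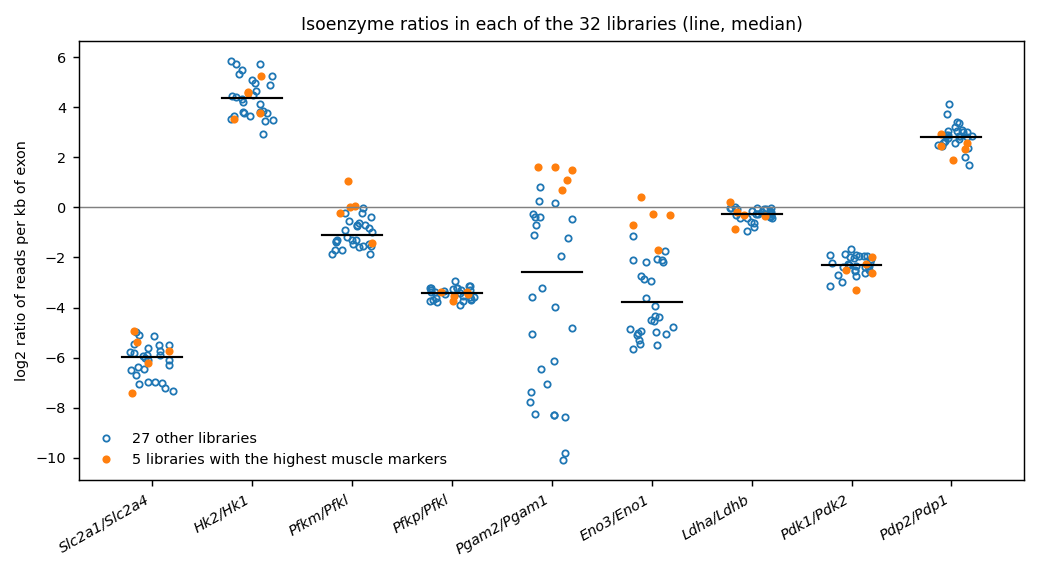
Log2 ratio of reads per kilobase of exon for 9 pairs of isoenzymes (vertical axis) in each of the 32 libraries, with the median as a line and the 5 libraries with the highest muscle markers filled in orange. Hk2 over Hk1 and Pdp2 over Pdp1 lie above 0 in every library, Slc2a1 over Slc2a4, Pfkp over Pfkl and Pdk1 over Pdk2 below 0 in every library, and Pgam2 over Pgam1 spreads from -10.1 to 1.61.

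Pyruvate enters the mitochondrion through a carrier of MPC1 and MPC2. Mpc1 had a cosine component with a 1.48-fold change and a peak at ZT18.2 (adjusted p = 0.0195), from 93.9 ± 19.9 CPM at ZT18 to 54.2 ± 3.82 CPM at ZT3 (SD, n = 4), and all ZT18 mice were above all ZT3 mice. Mpc2 ran from 409 ± 96.6 CPM at ZT0 to 279 ± 15.6 CPM at ZT3 (SD, n = 4, cosine adjusted p = 0.154). Pyruvate dehydrogenase itself is built from Pdha1 and Pdhb, the E1 subunits, and Dlat, the E2 core. Pdha1 had 2550, 1760, 2440 and 1890 CPM at ZT0 and 1190, 2060, 1820 and 1810 CPM at ZT15. These groups overlapped, and no test was passed (cosine adjusted p = 0.31).

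Pdhb had 1300, 1070, 1400 and 1120 CPM at ZT0 and 452, 954, 814 and 882 CPM at ZT15. The groups did not overlap, and the lowest mouse was again replicate 1 of ZT15. Its fitted change was 1.45-fold with a peak at ZT0.446 (adjusted p = 0.0459), a call lost in 17 of 32 fits without 1 library and in the fit without the libraries with high muscle markers (adjusted p = 0.125). Dlat had its highest mean at ZT21 (865 ± 92.6 CPM) and its lowest at ZT9 (689 ± 150 CPM, SD, n = 4, cosine adjusted p = 0.103).

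Pyruvate dehydrogenase kinases switch the complex off. Pdk2 was the main kinase of the list, above Pdk1 per kilobase in all 32 libraries by a median of 4.91-fold. Pdk4, a kinase outside the list, was higher in CPM: its lowest time point mean, 458 CPM at ZT15, was above the highest of Pdk2. Pdk2 ran from 357 ± 34.3 CPM at ZT15 to 282 ± 19 CPM at ZT0 (SD, n = 4), and every ZT15 mouse (307, 372, 368 and 383 CPM) was above every ZT0 mouse (289, 260, 304 and 277 CPM). The fitted change was small, 1.23-fold, with a peak at ZT13.2 (adjusted p = 0.000173), and the cosine call held in each fit without 1 library, while beside lane the adjusted p was 0.198. Pdk1, a target of the hypoxia response, had no cosine component (135 ± 39.2 to 188 ± 30.5 CPM, SD, n = 4, adjusted p = 0.467), nor had Pdk3 at 0.906 to 2.1 CPM (adjusted p = 0.095). Of the phosphatases that switch the complex on, Pdp2 exceeded Pdp1 per kilobase in all 32 libraries by a median of 7.06-fold. Mean Pdp2 was 96.4 ± 24.7 CPM at ZT9, its highest, and 62.8 ± 12 CPM at ZT21, its lowest (SD, n = 4), with a peak at ZT9.42 (adjusted p = 0.00472). Pdp1 had its lowest mean at ZT0 (6.86 ± 1.65 CPM) and its highest at ZT21 (10.6 ± 1.7 CPM, SD, n = 4), with a cosine adjusted p of 0.185.

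The start of activity was then set against the start of rest. At ZT12, 2 of the 37 genes were higher than at ZT0 by edgeR, against 7.71% of all tested genes, and 4 were lower, against 8.15%. The higher ones were Pfkfb1 (0.55 ± 0.11 on the log2 scale, SE, n = 4 each, adjusted p = 0.00119) and Pdk2 (0.27 ± 0.08, adjusted p = 0.0178). The lower ones were Slc16a1 (-1.13 ± 0.20, adjusted p = 0.000295), Pfkp (-1.10 ± 0.20, adjusted p = 0.000388), Pkm (-0.44 ± 0.14, adjusted p = 0.0322) and Pfkfb4 (-0.54 ± 0.17, adjusted p = 0.0325). The mice of ZT12 and ZT0 were sequenced on different lanes, so time and lane cannot be told apart in this contrast. Without replicate 3 of ZT0 the adjusted p was 0.119 for Pkm and 0.201 for Pfkfb4, and without replicate 2 of ZT0 it was 0.0678 for Pdk2. Without the libraries with high muscle markers 4 passed, against 9.47% of all tested genes in either direction, and the adjusted p was 0.181 for Pkm and 0.139 for Pfkfb4. With library size in place of TMM it was 0.0563 for Pfkfb4. With the replicate number as a block Slc16a1, Pfkp and Pfkfb1 remained. The median log2 difference was -0.15 over the 37 genes and 0 over all tested genes.

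Other genes of glucose metabolism, a list of 38 chosen by function, gave the surroundings of the pathway. Of the 34 that passed the filter, 16 had a cosine component and 16 oscillated by JTK, against 36.1% and 36.4% of all tested genes. The cosine test beside lane was passed by 6, against 17.2%, and at ZT12 5 were higher and 4 lower than at ZT0, against 7.71% and 8.15%. Pdk4, the pyruvate dehydrogenase kinase induced in fasting, ran from 1910 ± 274 CPM at ZT3 to 458 ± 124 CPM at ZT15 (SD, n = 4), with a peak at ZT2.85 (adjusted p = 0.0038), a phase unlike that of Pdk2.

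Hk3, a hexokinase known from leukocytes, changed 2.4-fold with a peak at ZT8.15 (adjusted p = 0.006) at a mean of 0.985 CPM, and its highest time point mean, 1.94 ± 2 CPM at ZT9 (SD, n = 4), rested on replicate 3, the library with the highest leukocyte marker sum, at 4.93 CPM. Without this library, a fit chosen after seeing the data, the ZT9 mean of Hk3 was 0.938 ± 0.201 CPM (SD, n = 3) and the change 2.03-fold (edgeR adjusted p = 0.0411). In the pentose phosphate pathway, Pgd changed 2.07-fold (peak at ZT22.4, adjusted p = 0.0236) and Rpia 1.99-fold (peak at ZT19.3, adjusted p = 0.00248). Mlxipl, which encodes the glucose-responsive factor ChREBP, ran from 790 ± 213 CPM at ZT0 to 356 ± 18 CPM at ZT9 (SD, n = 4), a fitted 1.84-fold change with a peak at ZT20.6 (adjusted p = 0.00367, and 0.0058 beside lane). Hkdc1, Pklr and Fbp1, forms of liver and other tissues, had at most 11 counts in any library and were not tested.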

How the data were processed

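RNA-sequencing counts of 32 iBAT libraries, 4 mice at each of 8 time points, were analysed. The deposited values are raw counts per Ensembl gene with no normalization. The authors had aligned the reads to mm10 with GSNAP and counted them per gene with HTSeq (version 0.6.1), as their methods and processing notes state. Groups, replicate numbers and lanes were taken from the labels. The 37 genes and all other gene lists were chosen with earlier results of these data known.

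Low counts were removed by filterByExpr with time points as groups (edgeR version 4.0.16 in R version 4.3.3), TMM factors were applied, and every test was fitted on all 15505 remaining genes. JTK was an own implementation with templates of 21 and 24 h, Bonferroni corrected over 15 templates a gene. The quasi-likelihood F test of edgeR, called at a BH adjusted p under 0.05, was used for the 24 h cosine (also with lane as a factor), the time points (also within each lane) and the contrast of ZT12 with ZT0. Amplitude and peak came from a least squares cosine on log2 CPM (prior count 2). All p-values in the report without another name are BH adjusted values of these fits. The tests were tried on simulated counts. No 2 libraries of a time point were as alike as counting noise gives (lowest mean chi-square per gene 7.98 over 48 pairs). Library totals set the precision of low genes, and without molecular identifiers counting error is a lower limit of the true error.

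All 37 genes are named. Those with a cosine component and a change of at least 1.5-fold, and the 4 with the highest mean CPM, are given mouse by mouse at their highest and lowest time points, and others are given so where noted. Of the other glucose genes, the 6 with the largest change among those called are given, except where a gene is not reported here. Coordinates, exon lengths and the share of 100-base exon windows found in no other gene come from GENCODE vM21 (GRCm38), not the Ensembl release counted with. Promoters come from RefSeq. Alternatives were other scalings, no filter, removal of mitochondrially encoded genes, leaving out each library or the 5 with high muscle markers, a replicate block, a muscle covariate and DESeq2 (version 1.42.0).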

Additional observations from a re-analysis of the deposited data

Results flagged for a closer look

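In each of the 37 genes and at each of the 8 time points, the outermost of the 4 mice was compared with the others, 296 comparisons in all. In 19 of them the gap to the nearest mouse took more than 0.829 of the whole range, Dixon's critical value for 4 samples, which chance exceeds in about 1 of 20 groups.

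Of the 19, 8 lay in replicate 2 of ZT3 or of ZT6, whose muscle marker sums were far above those of the other 3 mice of their time points. In replicate 2 of ZT3, with a muscle marker sum of 7520 CPM, Pgam2 had 79.2 CPM against 0.058 to 0.9 CPM (ratio 0.989). Eno3 had 191 CPM there against 8.82 to 9.58 CPM (ratio 0.996). Slc16a3 had 4.14 CPM against 0.174 to 0.588 CPM (ratio 0.896), and Pfkm had 219 CPM against 84.3 to 107 CPM (ratio 0.831). Pdk3 had 1.96 CPM against 1.38 to 1.47 CPM (ratio 0.846). In replicate 2 of ZT6, with a sum of 1910 CPM, Pgam2 had 17.7 CPM against 0 to 0.167 CPM (ratio 0.991). Eno3 had 51.6 CPM there against 8.54 to 11.1 CPM (ratio 0.941), and Slc16a3 had 1.12 CPM against 0.224 to 0.279 CPM (ratio 0.94).

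Replicate 1 of ZT15, which held the highest muscle marker sum, was outermost in 3 genes. Aldoa was low there, at 2020 CPM against 2660 to 2780 CPM (ratio 0.843), and so was Gpi1, at 519 CPM against 749 to 787 CPM (ratio 0.859). Slc2a1 was high, at 13.6 CPM against 5.4 to 6.41 CPM (ratio 0.876).

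Replicate 4 of ZT0 was also outermost in 3 genes. Slc2a1 had 8.29 CPM against 4.36 to 4.68 CPM (ratio 0.919), Aldoc had 2.17 CPM against 0.889 to 1.07 CPM (ratio 0.856), and Mpc2 was low at 265 CPM against 448 to 469 CPM (ratio 0.898).

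The remaining 5 fell in different libraries. Gapdh had 62.2 CPM in replicate 2 of ZT21 against 42.3 to 45.2 CPM (ratio 0.852). Slc16a1 had 251 CPM in replicate 1 of ZT12 against 160 to 174 CPM (ratio 0.847). Aldoc had 3.04 CPM in replicate 3 of ZT12 against 0.42 to 0.822 CPM (ratio 0.846). Pfkfb2 had 13.7 CPM in replicate 4 of ZT9 against 10.7 to 11.2 CPM (ratio 0.835). Pdk3 had 1.94 CPM in replicate 3 of ZT9, the library with the highest leukocyte marker sum, against 1.4 to 1.45 CPM (ratio 0.902). The part of these mice in the results is given by the fits that leave out each library.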

How the results depend on the processing

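No direction was reversed under any alternative. Of the 56 counts of called genes under alternatives other than leaving out 1 library, 48 stayed within 1.5 times the main count. The exceptions were 9 genes by JTK with BH adjustment in place of 15, 17 genes that differed between time points with DESeq2 in place of 11, 1 gene on lane 2 in place of 3 and 2 on lane 3 in place of 0 (Slc2a4 and Hk2) without the libraries with high muscle markers, 2 genes on lane 4 in place of 1 without a filter, and 3 genes between ZT12 and ZT0 in place of 6 without a filter. With a replicate block, 0 genes differed on lane 4 and 3 between ZT12 and ZT0, and 18 had a cosine component. The replicate numbers did not pair the mice: over 112 pairs of libraries with the same number the median correlation of deviations from the time point means was -0.05, from -0.77 to 0.8, and over 336 pairs with different numbers it was 0. Leaving out 1 library at a time gave 13 to 19 genes by JTK, 14 to 20 with a cosine component, 7 (without replicate 1 of ZT18) to 15 between time points, 0 (without replicate 3 of ZT0) to 6 (without replicate 4 of ZT0) on lane 2, 0 to 2 (without replicate 1 of ZT15) on lane 3, 1 to 2 (without replicate 3 of ZT21) on lane 4, 4 to 7 (without replicate 1 of ZT15) with a cosine component beside lane, and 4 (without replicate 2 of ZT0) to 10 (without replicate 4 of ZT0) between ZT12 and ZT0. Without the libraries with high muscle markers Pfkl, Aldoa, Pgk1, Eno2, Pkm, Ldha and Pdhb lost their cosine call and Pfkfb4 gained one. The fitted log2 changes of the 7 ran from 0.19 to 0.61 there and from 0.22 to 0.61 with all libraries. These ranges do not show the change of each gene. That fit also had fewer samples, and whether the calls were lost with the samples or with the muscle transcripts was not tested. Library size in place of TMM moved the median log2 difference of all genes between ZT12 and ZT0 from 0 to 0.05, with 2 genes higher and 4 lower under each, although Pfkfb4 no longer passed under library size and Aldoa did. Genes near 1 CPM, such as Eno2, Aldoc and Pdk3, rest on few reads.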
